A study of Bos taurus with 16 samples.

Results

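The comparison described here is that of bone morphogenetic protein 6 (BMP6) alone with untreated control in cultured bovine theca interna cells, which uses 8 of the 16 arrays of the series, 4 per group, chosen by the treatment named in each array's title. The cells came from the ovaries of adult cattle, collected at a slaughterhouse, and were kept for 6 days in primary culture without serum. BMP6 was present at 10 ng/ml from day 3 to day 6 in 1 group, and the control group received neither BMP6 nor luteinising hormone (LH). The 8 other arrays come from cultures with LH at 160 pg/ml, with or without BMP6. They share the estimate of the spread in the fit and are used otherwise only for a short side-by-side comparison at the end. Each array measured total RNA of a whole culture on an Affymetrix bovine GeneChip. Values are log2 signals, so that a difference of 1 is a 2-fold change, and group levels are given as mean ± SD and differences as estimate ± SE (n = 4 arrays per group). The labels describe replicate cultures from separate batches of ovaries, each of pooled follicles, so the p values speak of the spread between such cultures.

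Theca interna cells form the vascularised layer outside the follicle's basement membrane and make androgen, the substrate for oestrogen synthesis by the granulosa cells inside it. BMP6 is a ligand of the TGF-beta superfamily made in the follicle. It binds a complex of type I and type II serine-threonine kinase receptors, which phosphorylate SMAD1, SMAD5 and SMAD9. These move to the nucleus with SMAD4 and act on genes such as the ID family, whose products block basic helix-loop-helix transcription factors. In theca cells BMPs are known as inhibitors of androgen production.

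Array medians lay between 6.12 and 6.16. The deposited values were already normalized across arrays by RMA, so this narrow range does not speak of array quality. Control replicates 1 and 3 stood apart in the signal of their hybridisation controls, at 9.23 and 9.32 against 10.46 to 10.70 on the 6 other arrays of the comparison. These and LH replicate 1, which shared the low signal, are called the weakly hybridised arrays here, and counts without them are given wherever they moved by over 1.5 times. The 3 prime minus 5 prime signal of GAPDH, a sign of RNA integrity, was 0.229 ± 0.039 with BMP6 and 0.342 ± 0.051 in control. The groups did not overlap (two-sided exact permutation p = 0.0286, the smallest that 4 against 4 arrays allow, adjusted p = 0.171 over 6 quality measures). These 6 included the array median and both quartiles, which the normalization had levelled. For actin the 3 prime minus 5 prime signal was 1.86 ± 0.28 with BMP6 and 2.20 ± 0.35 in control (exact permutation p = 0.171, adjusted p = 0.343). The part of RNA integrity in the results was not tested. The precision is limited by the number of arrays, and the median SE of a difference was 0.102.

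BMP6 changed a large share of the transcripts measured, mostly by small steps. A probe set is called here when limma gave it an adjusted p under 0.05 by the Benjamini-Hochberg method over all 24016 tested, and 18.1% were called, 8.12% higher and 9.95% lower. Over the 9155 genes that the annotation names, each read from its brightest probe set, 24.8% were called. Genes called lower outnumbered those called higher, with 1422 (15.5%) against 852 (9.31%). Each count of list members below is to be read beside these shares of all genes. The excess of lower calls lay among named probe sets, where 8.51% were called higher and 12.9% lower, while of the 10724 unnamed ones 7.64% were higher and 6.32% lower. Without the weakly hybridised arrays 1188 probe sets were called higher and 1472 lower (544 and 900 genes). The median called probe set differed 1.40-fold, and only 133 genes (1.45%) rose and 124 (1.35%) fell by at least 2-fold. Calls were more frequent among bright probe sets. With probe sets split by mean signal into 5 equal parts, 1.73% of the dimmest part were called higher and 1.21% lower, and 14.6% and 20.8% of the brightest. The groups did not overlap for 30.7% of genes, 11.3% with BMP6 higher and 19.4% with BMP6 lower, and for 22.8% of probe sets, 10.1% higher and 12.7% lower. The falls reached further than the rises: 8 probe sets fell by at least 3 on the log2 scale and 0 rose by as much.

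**Figure D1:**
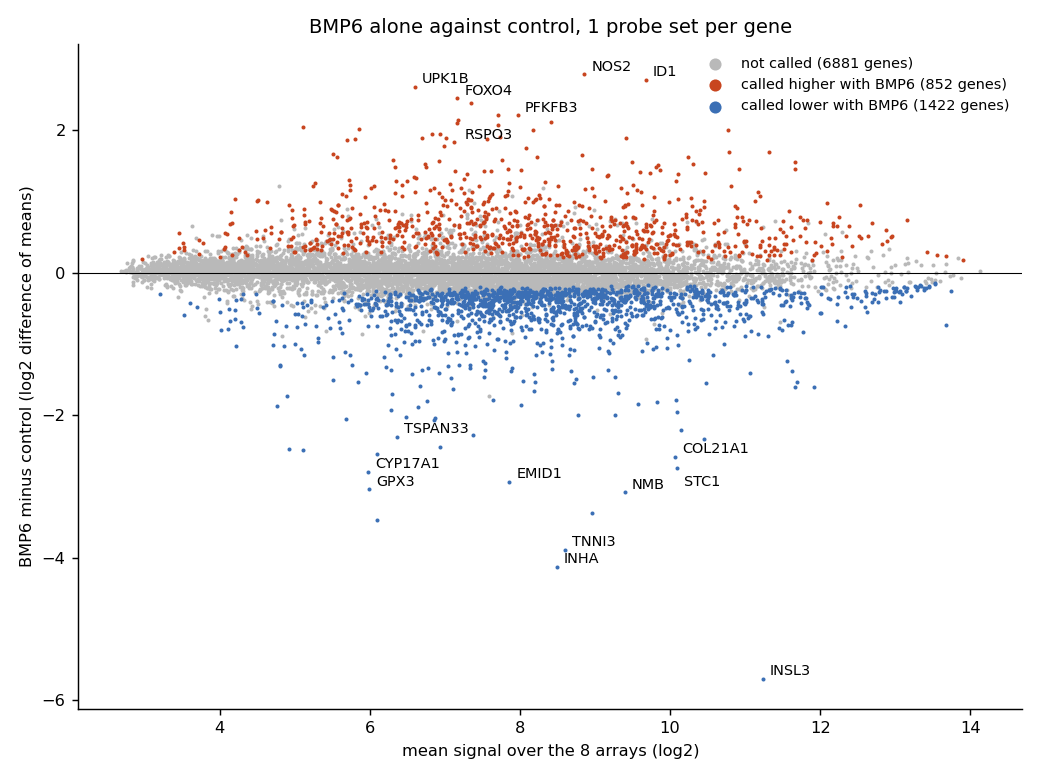
Difference between BMP6 and control (log2, vertical axis) against the mean signal over the 8 arrays (log2, horizontal axis) for 9155 genes, each drawn once and coloured by whether limma called it higher (852), lower (1422) or not at all. INSL3 lies far below all other genes at -5.70, the largest rises end near 2.79 (NOS2), and calls of small size fill the bright end on the right.

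INSL3 and steroidogenic genes of the theca cell were among the large falls, as was the inhibin subunit gene INHA. INSL3 and INHA fell the furthest of all named genes. INSL3, the insulin-like peptide hormone of theca cells, read 14.29, 14.18, 13.88 and 13.99 on control arrays 1 to 4 and 8.96, 10.12, 7.60 and 6.85 with BMP6. All 4 BMP6 arrays lay far below the controls but spread over more than 3 log2 units among themselves. The fall was estimated at 52.0-fold (-5.70 ± 0.55, adjusted p = 2.69e-06 by limma), and at -6.28 to -5.19 with single arrays left out. The control signals stood at the top of the array's range, so this estimate may be too small. INHA, which encodes the alpha subunit shared by the inhibins, read 11.28, 10.52, 10.03 and 10.41 in control and 6.59, 6.74, 6.06 and 6.30 with BMP6, a fall of 17.6-fold (-4.13 ± 0.24, adjusted p = 2.28e-08). The spread within either group was small beside this gap. The other subunit and binding protein genes of this system did not follow INHA. INHBA, the beta A subunit of activin and inhibin, differed by 0.40 ± 0.15 (adjusted p = 0.0666). It was called without control replicate 3 (0.52, adjusted p = 0.0173) and with the replicate number as a block, fixed or random (adjusted p between 0.0468 and 0.0488). FST, which encodes the activin-binding protein follistatin, differed by 0.47 ± 0.22 (adjusted p = 0.162) and was called only with the fixed block (adjusted p = 0.0447).

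Of 18 measured genes of steroid synthesis and cholesterol delivery 6 fell (33.3%, beside 15.5% of all genes) and 1 rose. Their median was -0.38, beside -0.02 over all genes. CYP11A1, which makes pregnenolone from cholesterol, read 11.18, 11.27, 11.25 and 11.32 in control and 9.36, 9.08, 8.93 and 8.81 with BMP6 (-2.21 ± 0.16, adjusted p = 1.58e-07). HSD3B1, which converts pregnenolone to progesterone, read 11.84, 11.74, 11.37 and 11.52 in control against 9.94, 8.55, 9.34 and 9.31 (-2.33 ± 0.25, adjusted p = 8.96e-06). CYP17A1, the enzyme that commits the pathway to androgen, read 8.56, 7.03, 6.59 and 7.35 in control and 4.34, 4.84, 4.89 and 4.26 with BMP6 (-2.80 ± 0.52, adjusted p = 0.00115). Groups were well separated for all 3 enzymes. The BMP6 values of CYP17A1 lay close to the lower quartile of the arrays (4.31 to 4.40), so the estimate of its fall may be too small. The same holds for the differences of NR0B1, GPX3, HPGD, TNNT1, CXCL14, CDH2 and SLC2A3, given with their lists, since their dimmer group had a mean near that level. STAR, which moves cholesterol into mitochondria, behaved unevenly across the BMP6 cultures. It read 8.52, 8.36, 8.21 and 8.72 in control and 5.73, 5.24, 8.18 and 7.72 with BMP6, so that replicates 1 and 2 were low and replicates 3 and 4 close to the controls. The difference of -1.74 ± 0.68 was not called (adjusted p = 0.0901) but was without BMP6 replicate 3 (-2.23, adjusted p = 0.0371). The member that rose was TSPO, an outer mitochondrial membrane protein (0.88 ± 0.11, adjusted p = 5.25e-05), at 9.64 to 10.19 in control and 10.75 to 10.93 with BMP6.

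LHCGR, the LH receptor gene, read 8.06, 8.13, 7.85 and 7.50 in control and 5.89, 5.40, 6.12 and 5.87 with BMP6 (-2.06 ± 0.19, adjusted p = 1.33e-06), without overlap. NR5A1, whose product steroidogenic factor 1 switches on most genes of the pathway, read 9.68, 9.47, 9.30 and 9.53 in control and 7.93, 7.98, 7.99 and 7.90 with BMP6 (-1.55 ± 0.10, adjusted p = 2.91e-08). The BMP6 arrays agreed closely and all 4 probe sets of the gene were called lower. NR0B1, which encodes DAX1, a repressor that binds this factor, also fell (-1.31 ± 0.20, adjusted p = 0.000202). NR5A2 stood near the bottom of the range in both groups (3.53 ± 0.07 and 3.44 ± 0.13). The GATA factors that act on gonadal promoters moved otherwise. GATA6 rose slightly (0.38 ± 0.09, adjusted p = 0.00541), GATA4 differed by 0.15 ± 0.10 (adjusted p = 0.35), and GATA5 rose by 1.95 ± 0.32 (adjusted p = 0.000436), although BMP6 replicate 2 reached only 6.64 against 7.89 to 8.47 on the 3 others and 5.62 to 6.33 in control. In the list of 33 steroidogenic and nuclear transcription factors, which does not hold GATA5, 10 rose and 4 fell. The rises were led by the early-response receptors NR4A1 (1.16 ± 0.19) and NR4A2 (0.97 ± 0.18) and by the cAMP-responsive CREM (1.02 ± 0.19, 1 of its 6 probe sets called).

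Genes for cholesterol synthesis and uptake were lower as a group: 12 of 18 fell, 0 rose, and the median was -0.84. The 4 control arrays had list levels (the median over members relative to each gene's mean over the 8 arrays) between 0.32 and 0.59, and the BMP6 arrays between -0.63 and -0.02. TM7SF2 and LSS, both enzymes of the late sterol pathway, fell by 1.43 ± 0.38 (adjusted p = 0.0129) and 1.35 ± 0.20 (adjusted p = 0.000166) on the log2 scale. Without BMP6 replicate 4 the number of members called lower was 7.

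**Figure D2:**
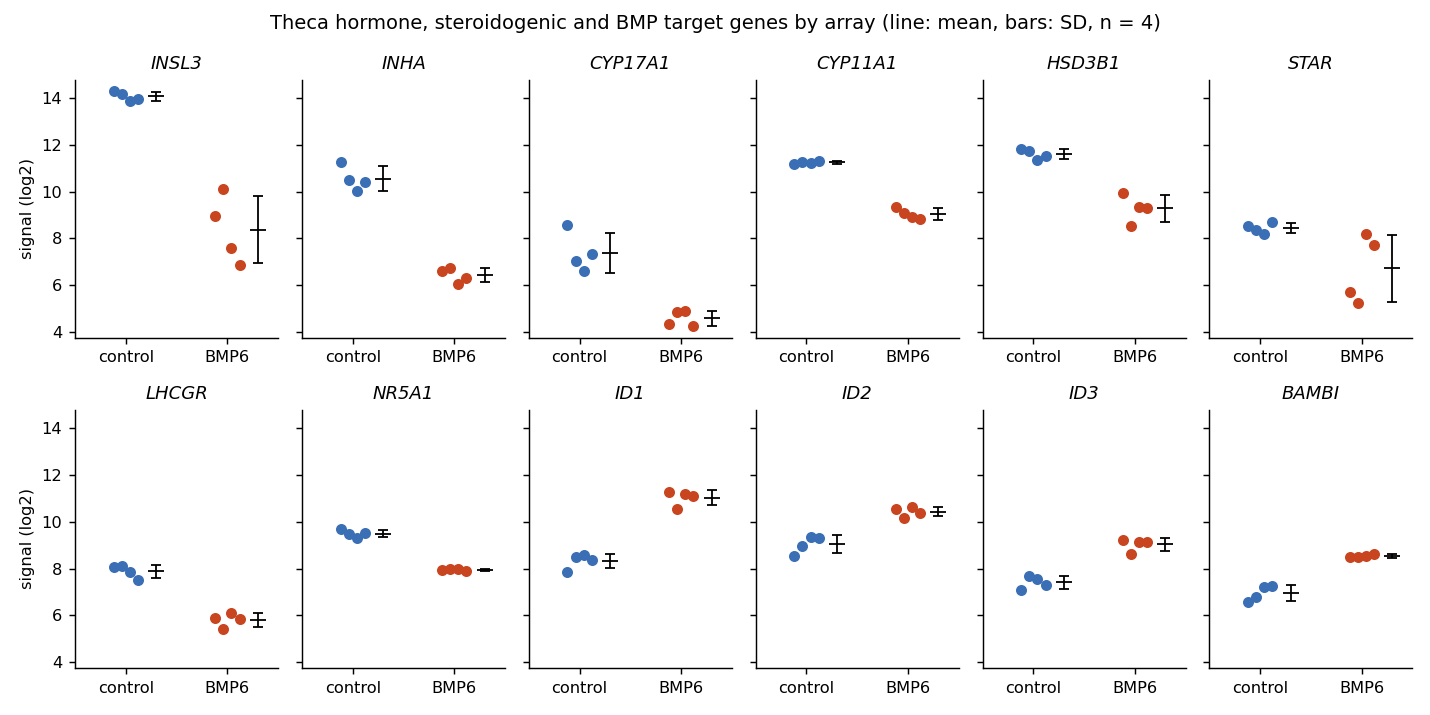
Log2 signal (vertical axis, common to all panels) of 12 genes on the 4 control and 4 BMP6 arrays, 1 point per array in replicate order, with the mean and SD of each group beside the points. The groups do not overlap in any panel, but STAR, which was not called, is barely separate. It splits into a low and a high pair with BMP6, the high pair close to the controls, while NR5A1 and BAMBI are tight.

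The summed signal of the theca marker genes that the annotation names (INSL3, CYP17A1, LHCGR, STAR, CYP11A1, HSD3B1, NR5A1 and PTCH1) fell from between 14.38 and 14.76 to between 10.77 and 11.30 on the log2 scale, with 6 of the 8 called lower. INSL3 made up most of the summed signal in control, so the drop of the sum is largely that of INSL3. The median difference of the 8 members was -2.135. In whole cultures fewer cells of a type and less RNA per cell cannot be told apart. PTCH1 was near the bottom of the range in both groups.

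Of 11 measured direct targets of BMP-SMAD signalling 6 rose, 0 fell and the others did not pass the test, with a median of 0.62. ID1 read 7.87, 8.48, 8.57 and 8.37 in control and 11.27, 10.57, 11.18 and 11.12 with BMP6, a rise of 6.54-fold (2.71 ± 0.20, adjusted p = 1.59e-07, by its brighter probe set, with the other not called). ID3 read 7.10, 7.70, 7.57 and 7.30 in control and 9.22, 8.65, 9.15 and 9.13 with BMP6 (1.62 ± 0.18, adjusted p = 1.53e-05). ID2 read 8.52, 8.96, 9.35 and 9.32 in control and 10.56, 10.17, 10.62 and 10.40 with BMP6 (1.40 ± 0.18, adjusted p = 5.01e-05). In all 3 the lowest BMP6 array, replicate 2 each time, lay above the highest control. TMEM100, a membrane protein induced by BMP in vessels, rose by 1.75 ± 0.29 (adjusted p = 0.000443). BAMBI, a pseudoreceptor that dampens BMP and TGF-beta signals and was chosen here after its value was seen, rose by 1.58 ± 0.13 (adjusted p = 5.82e-07), from 6.57 to 7.28 in control to 8.49 to 8.65 with BMP6. The inhibitory SMAD6 and SMAD7, the receptor SMADs SMAD1 and SMAD9, ID4 and INHBB were not named in the annotation and are not analysed here.

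The receptor machinery itself moved little. Of 19 measured ligands, receptors, SMADs and antagonists of the BMP and activin branch 4 rose and 2 fell, and without the weakly hybridised arrays 1 rose and 2 fell. The count of rises was 1 without control replicate 1 or 2, 2 without control replicate 4 and 2 without any 1 BMP6 array. Type I receptor genes ACVR1 (0.13 ± 0.07, adjusted p = 0.246) and BMPR1A (-0.08 ± 0.17, adjusted p = 0.817) and the transducer SMAD5 (-0.03 ± 0.11, adjusted p = 0.904) were not called. BMPR1B, a further type I receptor, fell by 0.45 ± 0.11 on the log2 scale (adjusted p = 0.00757) by 1 of its 2 probe sets, and with the mean of both it was not called (adjusted p = 0.123). Among type II receptors ACVR2B differed by -0.10 ± 0.10 (adjusted p = 0.605). BMPR2 rose by 0.43 ± 0.13 (adjusted p = 0.0296). Its call was lost without BMP6 replicate 1, 2 or 3 or control replicate 1, 2 or 4 (0.35 to 0.52 over all single arrays left out, adjusted p between 0.0529 and 0.107 where lost). ACVR2A rose by 0.32 ± 0.10 (adjusted p = 0.0327). Its call was lost without any single array but BMP6 replicate 1 (0.27 to 0.36, adjusted p between 0.0501 and 0.102), by quantile normalization and without the weakly hybridised arrays.

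In the TGF-beta branch 5 of 13 members rose (38.5%, beside 9.31% of all genes) and 0 fell. LTBP1, a latent TGF-beta binding protein that stores the ligand in matrix, read 5.41, 5.69, 6.71 and 6.50 in control and 7.88, 7.60, 8.20 and 8.19 with BMP6 (1.89 ± 0.27, adjusted p = 0.000115). LTBP2 rose by 1.25 ± 0.23 (adjusted p = 0.00117), and PMEPA1, a feedback inhibitor of TGF-beta signalling, by 1.21 ± 0.20 (adjusted p = 0.000514). None of these groups overlapped. The osteogenic genes known as BMP targets in bone did not rise as a group. Of 20 measured 2 were higher and 2 lower (10.0% each way, beside 9.31% higher and 15.5% lower of all genes). ALPL, the alkaline phosphatase of mineralising cells, was among those that rose (1.10 ± 0.23, adjusted p = 0.00288).

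Genes of the mitochondrial respiratory chain fell together, each by a small amount. These nuclear genes encode subunits of the complexes that pass electrons to oxygen and of the ATP synthase. Of 80 measured members 65 fell (81.2%, beside 15.5% of all genes) and 1 rose, and the median was -0.36. Lower calls were spread over all complexes: 30 of 37 genes of complex I, 2 of 4 of complex II, 8 of 9 of complex III, 9 of 13 of complex IV and 16 of 17 of the ATP synthase. Complex medians lay between -0.33 and -0.40. COX6C, a subunit of cytochrome c oxidase, read 12.14, 12.32, 12.04 and 12.23 in control and 11.43, 11.28, 11.40 and 11.31 with BMP6 (-0.83 ± 0.06, adjusted p = 2.93e-07). ATP5MC2, which encodes the c subunit of the ATP synthase ring, fell by 0.82 ± 0.13 (adjusted p = 0.000243) and COX7A1 by 0.79 ± 0.09 (adjusted p = 1.03e-05) on the log2 scale. The list levels of the 4 control arrays lay between 0.15 and 0.21 and those of the BMP6 arrays between -0.22 and -0.12, so every BMP6 culture lay below every control. The exception was NDUFA4L2, a complex I-related gene known to be induced by hypoxia (1.07 ± 0.28, adjusted p = 0.013), whose call was lost without the weakly hybridised arrays (adjusted p = 0.0804). Of 18 tricarboxylic acid cycle genes 5 fell and 1 rose. IDH3G, a subunit of isocitrate dehydrogenase, fell by 0.51 ± 0.09 on the log2 scale (adjusted p = 0.000998). With only the 8 arrays compared the number of these cycle genes called lower was 8, and without the weakly hybridised arrays it was 3.

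The genes for the proteins of the mitochondrial ribosome, which translates the subunits encoded in mitochondrial DNA, also fell. Of 67 members 43 fell (64.2%, beside 15.5% of all genes) and 0 rose, with a median of -0.28. The number that fell was 25 without the weakly hybridised arrays. The large subunit had 29 of 43 lower and the small subunit 14 of 24. MRPL57 fell by 0.91 ± 0.10 (adjusted p = 1.27e-05), MRPL41 by 0.90 ± 0.07 (adjusted p = 2.63e-07) and MRPL50 by 0.78 ± 0.11 (adjusted p = 0.000116) on the log2 scale. MRPL41 read 9.79, 9.82, 9.71 and 9.82 in control and 8.95, 8.89, 8.99 and 8.72 with BMP6.

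Cytosolic ribosomal protein genes were lower in 55 of 65 cases and higher in 0, with a median of -0.26 and not 1 member above 0. Large and small subunits differed little from each other (medians -0.27 and -0.24). RPL29 read 12.99, 12.99, 12.79 and 12.84 in control and 12.37, 12.26, 12.45 and 12.34 with BMP6 (-0.55 ± 0.07, adjusted p = 4.28e-05), and RPL28 fell by 0.49 ± 0.07 on the log2 scale (adjusted p = 9.52e-05). These genes are among the brightest on the array: 62 of the 65 lay in the brightest of these 5 parts, as did 77 of the 80 respiratory chain genes and 35 of the 67 mitochondrial ribosomal genes. Over all 3098 named genes in that part 23.7% were called lower and the median was -0.06. The size of the ribosomal shift depended on scaling. A further quantile normalization gave a median of -0.17 with 37 called lower, while the respiratory chain then had 65 called lower and a median of -0.36.

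**Figure D3:**
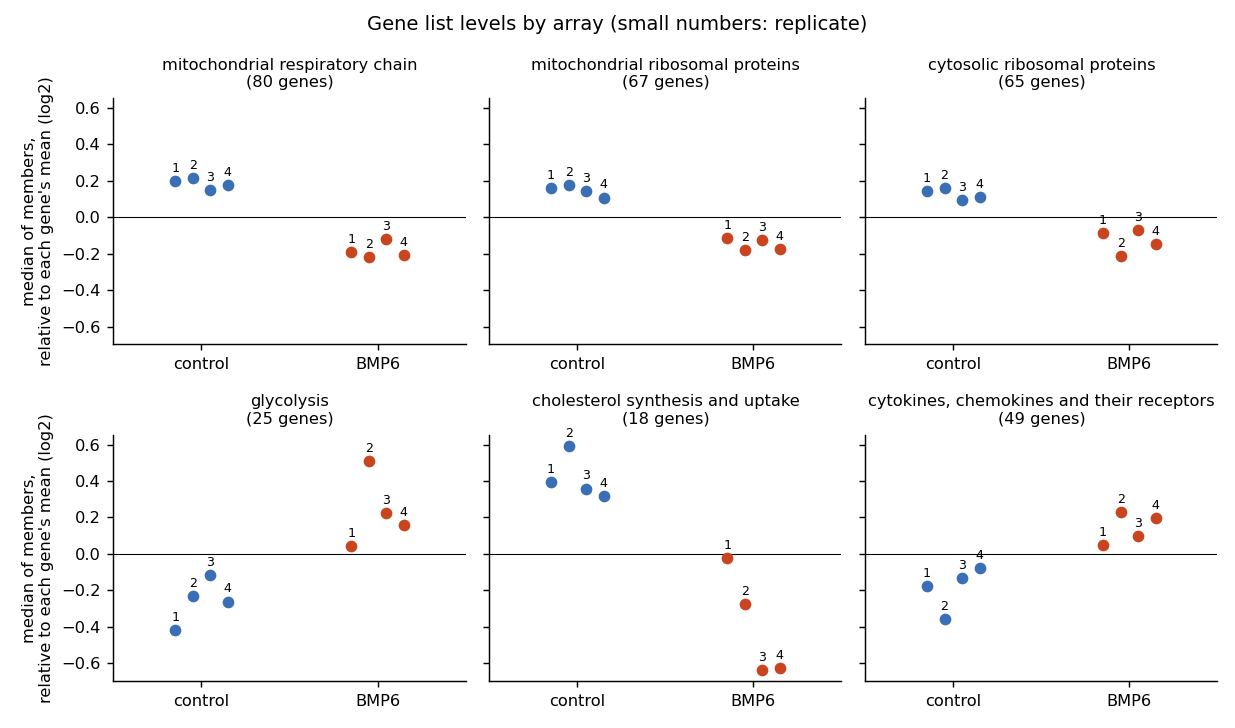
Median over the members of 6 gene lists of the log2 signal relative to each gene's mean over the 8 arrays (vertical axis), by array, with the replicate number above each point. The 3 lists in the top row are narrow in both groups (respiratory chain 0.15 to 0.21 in control and -0.22 to -0.12 with BMP6), while glycolysis and cholesterol genes spread more widely among BMP6 cultures.

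Falls in other lists of protein synthesis and turnover can be read beside the 15.5% of all genes and 23.7% of the brightest genes called lower. Of 50 translation initiation and elongation factors 17 fell and 1 rose (median -0.17), with EEF1D (-0.66 ± 0.10), EIF4B (-0.58 ± 0.11) and EEF1B2 (-0.57 ± 0.08) the furthest. This count was 7 without the weakly hybridised arrays, 10 without control replicate 1 or BMP6 replicate 4, and 11 without BMP6 replicate 2. Of 28 aminoacyl-tRNA synthetases, which charge tRNAs with amino acids, 9 fell and 1 rose, KARS1 by 0.58 ± 0.09 on the log2 scale (adjusted p = 0.000175) and QARS1 by 0.41 ± 0.08 (adjusted p = 0.00119). Of 24 genes of serine, glycine and other amino acid synthesis 7 fell, among them glutamine synthetase GLUL (-0.89 ± 0.15), the serine phosphatase PSPH (-0.73 ± 0.18) and the folate enzyme MTHFD1 (-0.71 ± 0.08). Chaperones of the cytosol and mitochondria were lower in 7 of 24 cases, led by the mitochondrial co-chaperonin HSPE1 (-0.69 ± 0.09, adjusted p = 3.72e-05). That count was 2 without the weakly hybridised arrays and 4 without control replicate 2 or 3 or BMP6 replicate 4. Among 39 proteasome genes 7 fell (4 without those arrays) and 0 rose, and the 17.9% lower was near the share of all genes and below that of the brightest, where 35 of the 39 lay. The 7 included PSMB10, a catalytic subunit of the immunoproteasome that trims peptides for MHC class I (-0.43 ± 0.09, adjusted p = 0.00289), and PSME1, of its activator (-0.46 ± 0.08, adjusted p = 0.00044).

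Glycolysis went the other way from respiration. Of 25 glycolytic genes 16 rose and 3 fell, with a median of 0.51. PFKFB3, whose product makes the allosteric activator of phosphofructokinase, read 6.11, 6.36, 7.33 and 7.67 in control and 8.85, 9.82, 8.84 and 8.80 with BMP6 (2.21 ± 0.34, adjusted p = 0.000259). Control replicates 1 and 2 were lower than replicates 3 and 4, and BMP6 replicate 2 stood above the other 3. The glucose transporter SLC2A3 (1.63 ± 0.32, adjusted p = 0.00176) and the lactate exporter SLC16A3 (1.84 ± 0.36, adjusted p = 0.00181) rose as well. LDHA, lactate dehydrogenase A, named after its value was seen, rose by 1.46 ± 0.23 (adjusted p = 0.000334) by its brightest probe set, and another of its 3 probe sets was called lower. LDHB, which favours the reverse reaction, fell by 0.34 ± 0.06 on the log2 scale (adjusted p = 0.00134), and PFKM, the muscle form of phosphofructokinase, by 1.01 ± 0.16 (adjusted p = 0.00024). Among 22 further genes inducible by hypoxia 11 rose and 0 fell (7 without the weakly hybridised arrays), with a median of 0.53. BNIP3, a mitophagy receptor (1.53 ± 0.26, adjusted p = 0.000508), the vascular growth factor VEGFA (1.46 ± 0.30, adjusted p = 0.00234) and ANGPTL4, an inhibitor of lipoprotein lipase (1.43 ± 0.23, adjusted p = 0.000359), led this list.

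**Figure D4:**
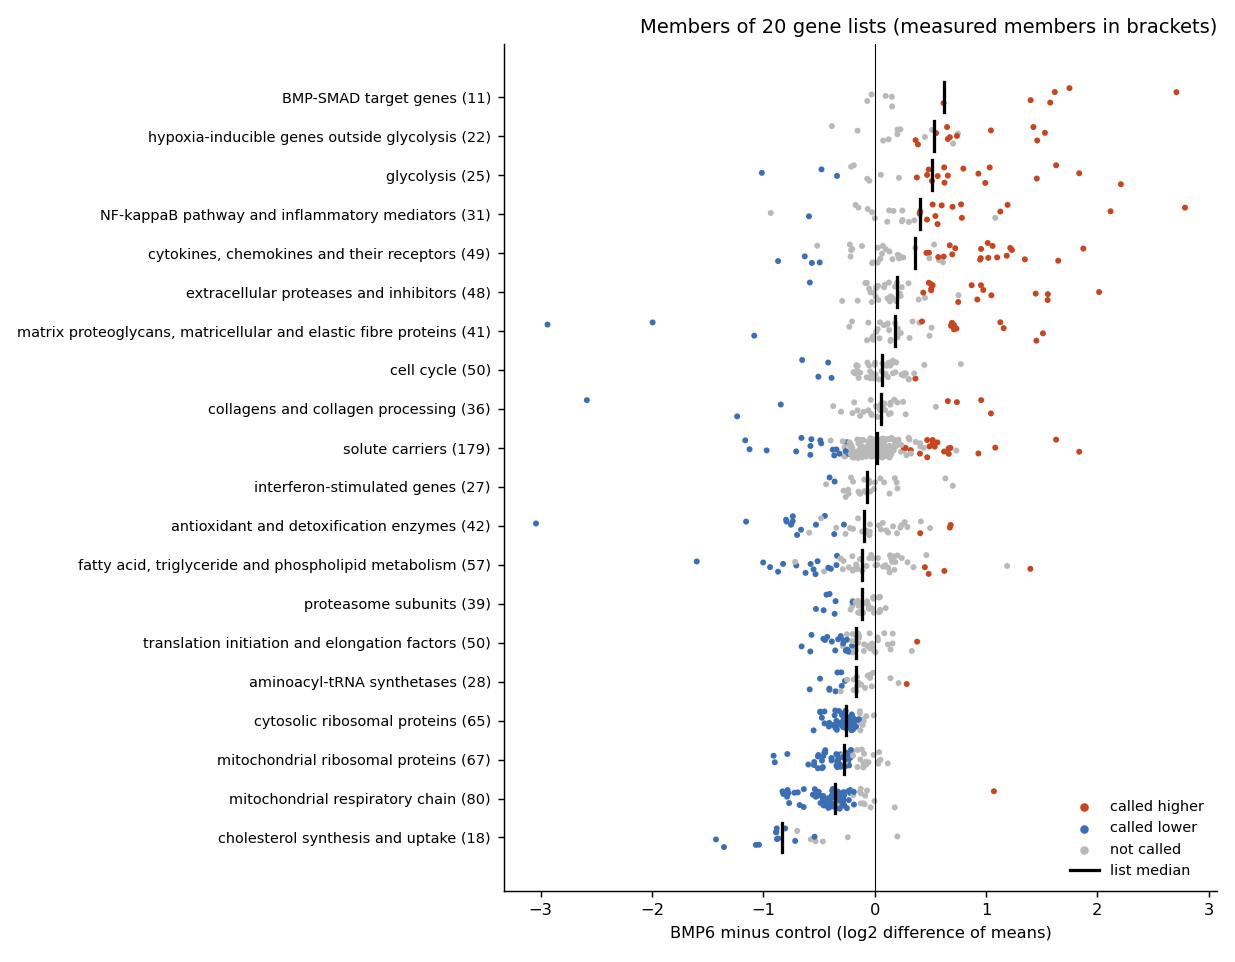
BMP6 minus control (log2, horizontal axis) for every measured member of 20 gene lists, ordered by their median (black bar), with each member coloured by its call. Respiratory chain and ribosomal genes form tight clouds left of 0 with medians of -0.36, -0.28 and -0.26, while glycolysis and hypoxia genes centre at 0.51 and 0.53.

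Lipid and antioxidant genes moved in both directions. Of 57 genes of fatty acid, triglyceride and phospholipid metabolism 15 fell (26.3%, beside 15.5% of all genes and 23.7% of the brightest, where 30 of the 57 lay) and 4 rose. APOD, an apolipoprotein that binds small lipids, fell by 1.60 ± 0.15 (adjusted p = 1.67e-06, all 3 probe sets lower), the glycerol acyltransferase GPAM by 1.00 ± 0.19 (adjusted p = 0.00142) and fatty acid synthase FASN by 0.94 ± 0.13 (adjusted p = 0.000101) on the log2 scale. LPL, the lipase that releases fatty acids from lipoproteins, rose by 1.40 ± 0.17 (adjusted p = 3.22e-05). Of 42 antioxidant and detoxification genes 13 fell (31.0%, with 26 of the 42 among the brightest) and 3 rose. GPX3, a secreted glutathione peroxidase, varied widely among controls, at 8.43, 8.82, 5.97 and 6.82, and read 4.98, 4.23, 4.34 and 4.33 with BMP6 (-3.04 ± 0.46, adjusted p = 0.000222), with the BMP6 values near the bottom of the range. The microsomal glutathione transferase MGST1 fell by 1.16 ± 0.27 (adjusted p = 0.00653) and the mitochondrial peroxiredoxin PRDX3 by 0.80 ± 0.09 (adjusted p = 1.13e-05) on the log2 scale. Heme oxygenase HMOX1 (0.67 ± 0.09) and the mitochondrial superoxide dismutase SOD2 (0.41 ± 0.11) rose. The number of members called higher was 7 without BMP6 replicate 2.

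A part of the inflammatory genes rose. Of 49 cytokines, chemokines and their receptors 20 rose (40.8%, beside 9.31% of all genes) and 4 fell, with a median of 0.36, and 13 rose without control replicate 2. The number called lower was 2 without that array, without BMP6 replicate 4 or without the weakly hybridised arrays. IL6, a cytokine of acute inflammation, read 7.15, 7.81, 8.59 and 8.44 in control and 8.94, 10.59, 9.52 and 9.55 with BMP6 (1.65 ± 0.39, adjusted p = 0.00693), and the groups came close to each other without overlapping. The chemokine CCL20 rose by 1.87 ± 0.35 (adjusted p = 0.0011) and IL1B by 1.35 ± 0.21 (adjusted p = 0.000294), while the chemokine CXCL14 fell by 0.87 ± 0.13 (adjusted p = 0.000231) at low signal (5.16 to 4.29). Among 31 genes of the NF-kappaB pathway and of inflammatory mediators 14 rose and 1 fell, or 8 and 1 without the weakly hybridised arrays. NOS2, the inducible nitric oxide synthase, had the largest rise of all named genes. It read 6.82, 6.68, 8.01 and 8.34 in control and 9.67, 11.10, 10.02 and 10.20 with BMP6 (2.79 ± 0.41, adjusted p = 0.000155). PTGS2, the inducible enzyme of prostaglandin synthesis, read 6.95, 6.33, 8.01 and 8.12 in control and 9.13, 10.24, 9.24 and 9.26 with BMP6 (2.12 ± 0.41, adjusted p = 0.0015). As for PFKFB3, control replicates 1 and 2 were the lower pair and BMP6 replicate 2 was the highest array. HPGD, which degrades prostaglandins and was named after its value was seen, fell by 2.06 ± 0.28 on the log2 scale (adjusted p = 8.69e-05), and the prostacyclin synthase PTGIS fell by 0.59 ± 0.09 (adjusted p = 0.000219). Of 27 interferon-stimulated genes 0 rose and 2 fell.

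Summed leukocyte and MHC class II markers moved with these genes, from between 13.62 and 14.15 in control to between 14.38 and 14.72 with BMP6, without overlap. Of these 28 markers 5 were called higher and 0 lower. The MHC class II gene BOLA-DYA read 5.99, 4.73, 6.93 and 7.0 in control and 8.40, 8.51, 8.41 and 8.87 with BMP6 (2.38 ± 0.48, adjusted p = 0.00197), and CD14, a monocyte co-receptor for lipopolysaccharide, rose by 1.13 ± 0.24 (adjusted p = 0.00286) with overlapping groups. The count called higher was 2 without BMP6 replicate 2 or 4 or control replicate 2, 3 without control replicate 1, 7 without the weakly hybridised arrays and 11 with only the 8 arrays compared. The part of leukocytes in these rises was not tested. In the complement and coagulation list 9 of 38 rose and 5 fell (3 without BMP6 replicate 1, control replicate 3 or the weakly hybridised arrays). C7, of the complement membrane attack complex, read 8.94, 9.0, 7.87 and 8.28 in control and 5.65, 6.26, 6.64 and 6.40 with BMP6 (-2.28 ± 0.26, adjusted p = 1.36e-05). CFD, complement factor D, fell by 1.53 ± 0.23 on the log2 scale (adjusted p = 0.000189), while PLAT, tissue plasminogen activator, rose by 1.55 ± 0.21 (adjusted p = 6.71e-05).

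Extracellular matrix genes moved in both directions. Of 48 extracellular proteases and inhibitors 16 rose (33.3%, beside 9.31% of all genes) and 1 fell (2.08%, beside 15.5%). MMP1, the interstitial collagenase, read 4.63, 4.56, 5.09 and 5.14 in control and 6.50, 7.34, 6.74 and 6.89 with BMP6 (2.02 ± 0.23, adjusted p = 1.49e-05). ADAMTS1, a protease of versican and other proteoglycans, rose by 1.56 ± 0.18 (adjusted p = 2.09e-05), and ADAMTS4, named after its value was seen, by 1.45 ± 0.26 (adjusted p = 0.000969). In the list of proteoglycans, matricellular and elastic fibre proteins 11 of 41 rose and 3 fell, with 7 higher without control replicate 1 or BMP6 replicate 4. The proteoglycan VCAN (1.51 ± 0.25, adjusted p = 0.000436), thrombospondin 2 (THBS2, 1.45 ± 0.21, adjusted p = 0.000158) and the microfibril protein MFAP2 (1.16 ± 0.25, adjusted p = 0.00378) led the rises. EMID1, a secreted protein with a collagen-like stretch, read 9.78, 9.56, 8.81 and 9.18 in control and 6.41, 6.26, 6.29 and 6.59 with BMP6 (-2.94 ± 0.18, adjusted p = 2.53e-08, by 1 of its 2 probe sets). OGN, the small proteoglycan osteoglycin, fell by 2.00 ± 0.52 on the log2 scale (adjusted p = 0.0117) in 3 of the 4 BMP6 cultures. They read 7.10 to 7.17, while replicate 1 read 9.71, within the control range. The OGN difference was -2.64 without that replicate, and the call was lost without the weakly hybridised arrays (adjusted p = 0.0685).

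Collagens and their processing enzymes had 4 of 36 members higher and 3 lower. COL21A1, a fibril-associated collagen, had the smallest adjusted p of all named genes, at 11.44, 11.32, 11.26 and 11.44 in control and 8.74, 8.78, 8.76 and 8.83 with BMP6 (-2.59 ± 0.08, adjusted p = 8.43e-13). COL6A1, of the beaded filament collagen VI, fell by 1.24 ± 0.15 on the log2 scale (adjusted p = 2.43e-05). Rises were those of enzymes that modify collagen, such as the lysyl hydroxylase PLOD2 (1.04 ± 0.25, adjusted p = 0.00655, or 0.66 without control replicate 1) and the prolyl hydroxylases P4HA3 (0.96 ± 0.16, adjusted p = 0.000464) and P4HA2 (0.74 ± 0.13, adjusted p = 0.00064). Among 30 laminins, integrins and basement membrane genes 7 rose (4 without BMP6 replicate 4) and 2 fell. The collagen-binding integrin ITGA2 rose by 1.59 ± 0.26 (adjusted p = 0.000436), while FBLN5, an elastic fibre adaptor (-1.49 ± 0.27, adjusted p = 0.000862), and the basement membrane protein NID2 (-0.81 ± 0.07, adjusted p = 7.84e-07) fell. Fibroblast markers, a list that itself holds matrix genes such as DCN and LUM, were higher in sum. Their sum was 15.21 to 15.62 in control and 15.69 to 15.84 with BMP6. Of 13 markers 5 were called higher, among them TCF21 (0.67 ± 0.09), DCN (0.73 ± 0.16) and LUM (0.71 ± 0.16), and 0 lower. Without the weakly hybridised arrays 5 were called higher and 1 lower. Control replicate 1 had a list level of -0.35, against -0.06 to 0.03 on the other controls. The part of fibroblasts in the matrix results was not tested.

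Cell surface and junction genes included several of the largest changes, although the list as a whole was close to the background, with 9 of 69 higher and 8 lower. UPK1B, a tetraspanin of the urothelial plaque, read 5.06, 5.25, 5.39 and 5.49 in control and 8.50, 7.49, 7.83 and 7.80 with BMP6, a rise of 6.11-fold (2.61 ± 0.22, adjusted p = 6.51e-07). CDH2, N-cadherin, read 4.06, 4.71, 4.84 and 5.08 in control and 6.63, 5.77, 6.23 and 6.74 with BMP6 (1.67 ± 0.27, adjusted p = 0.000322). TSPAN7 rose by 1.39 ± 0.22 (adjusted p = 0.000316), while another tetraspanin, TSPAN33, fell by 2.31 ± 0.10 on the log2 scale (adjusted p = 6.35e-10). Among neuropeptide, axon guidance and neural adhesion genes 6 of 55 rose and 4 fell, the rises numbering 2 or 3 without BMP6 replicate 3 or 4, control replicate 2 or the weakly hybridised arrays. SLIT3, a guidance ligand, rose by 2.07 ± 0.34 (adjusted p = 0.000436). NMB, the bombesin-like peptide neuromedin B, read 12.18, 11.29, 9.71 and 10.58 in control and 7.61, 8.17, 7.78 and 7.87 with BMP6, a fall of 8.48-fold (-3.08 ± 0.37, adjusted p = 2.52e-05). The control cultures differed more among themselves than those with BMP6. CELSR2, a cadherin with many extracellular repeats, fell by 2.54 ± 0.23 on the log2 scale (adjusted p = 1.33e-06, 1 of 2 probe sets).

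Growth factor pathways moved in part. Wnt pathway genes had 8 of 28 higher (28.6%, beside 9.31% of all genes) and 0 lower. RSPO3, a secreted amplifier of Wnt signals, rose by 2.14 ± 0.17 (adjusted p = 3.76e-07), the receptor ROR2 by 2.11 ± 0.19 (adjusted p = 1.36e-06) and SFRP2, a secreted frizzled-related protein, by 1.45 ± 0.31 (adjusted p = 0.0034). DKK3, named after its value was seen, rose by 1.08 ± 0.14 (adjusted p = 3.78e-05). Of 45 fibroblast, platelet-derived, epidermal and vascular growth factor genes 10 rose and 3 fell. FGFR2, a fibroblast growth factor receptor, read 5.52, 5.85, 6.36 and 6.14 in control and 7.97, 7.20, 8.30 and 8.17 with BMP6 (1.94 ± 0.22, adjusted p = 1.64e-05, 3 of 5 probe sets higher). VEGFC, named after its value was seen, rose by 1.03 ± 0.13 (adjusted p = 4.15e-05), whereas the angiopoietin ANGPT4 fell by 1.59 ± 0.20 (adjusted p = 4.3e-05) and VEGFD by 0.58 ± 0.10 (adjusted p = 0.000715, dim in both groups) on the log2 scale. In the insulin and IGF system 5 of 31 rose and 5 fell (16.1% each way, beside 9.31% higher and 15.5% lower of all genes). The falls include that of INSL3, already given above. The rises numbered 2 without BMP6 replicate 3 or 4 or control replicate 1 or 2, and 3 without the weakly hybridised arrays. The insulin receptor INSR (-1.24 ± 0.22, adjusted p = 0.000873, 2 of 5 probe sets) and STC1, a secreted glycoprotein that binds and restrains the protease PAPP-A (-2.74 ± 0.29, adjusted p = 8.11e-06), fell, and FOXO4, a forkhead factor held in check by insulin signalling, rose by 2.45 ± 0.17 (adjusted p = 6.73e-08). The Notch modifier LFNG rose by 0.91 ± 0.15 (adjusted p = 0.00042), 1 of 2 rises among 10 Notch genes.

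In retinoid metabolism 4 of 19 genes rose (21.1%, beside 9.31% of all genes) and 2 fell (10.5%, beside 15.5%). RDH10, which oxidises retinol to retinal, rose by 1.20 ± 0.23 (adjusted p = 0.00144), and the carriers CRABP2 (0.94 ± 0.23, adjusted p = 0.00754) and RBP4 (0.91 ± 0.18, adjusted p = 0.0017) rose too. ALDH1A1, which makes retinoic acid from retinal, fell from 12.46 ± 0.37 to 10.92 ± 0.26 (-1.54 ± 0.19, adjusted p = 3.08e-05), and DHRS3, which reduces retinal back to retinol, fell by 1.41 ± 0.26 (adjusted p = 0.00117) on the log2 scale.

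Among contractile and cytoskeletal genes 7 of 49 rose (4 without control replicate 1) and 3 fell. TNNI3, troponin I of heart muscle, read 11.18, 10.29, 10.05 and 10.68 in control and 6.74, 6.56, 6.82 and 6.51 with BMP6, a fall of 14.8-fold (-3.89 ± 0.28, adjusted p = 1.02e-07). TNNT1, a slow muscle troponin T, fell by 1.87 ± 0.32 (adjusted p = 0.000622) and the keratin KRT18 by 1.30 ± 0.28 (adjusted p = 0.00298) on the log2 scale. PDLIM3, a protein of the Z line (1.78 ± 0.41, adjusted p = 0.00508), and non-muscle myosin MYH10 (1.28 ± 0.15, adjusted p = 2.55e-05, 2 of 4 probe sets) rose. ANKRD1, a mechanically induced ankyrin repeat protein, and FBXO32, a ubiquitin ligase subunit of muscle wasting, both named after their values were seen, rose by 1.69 ± 0.26 (adjusted p = 0.000228) and 2.01 ± 0.28 (adjusted p = 9.97e-05). Among 26 hormone and prostaglandin receptors 3 rose (11.5%) and 4 fell (15.4%), near the 9.31% and 15.5% of all genes. The rises numbered 5 without BMP6 replicate 2. The endothelin receptor EDNRA rose by 1.12 ± 0.13 (adjusted p = 2.43e-05), and its ligand gene EDN1, named after its value was seen, by 1.87 ± 0.28 (adjusted p = 0.000187). The water channel AQP11 fell by 1.53 ± 0.27 on the log2 scale (adjusted p = 0.000661), 1 of 4 falls against 13 rises among 87 ion channels and pumps. Of 79 developmental transcription factors 13 rose and 6 fell. KLF15, a regulator of fuel use, fell by 0.95 ± 0.14 (adjusted p = 0.000194) and KLF4 rose by 0.91 ± 0.15 (adjusted p = 0.000404). Lysosome and autophagy genes had 11 of 40 higher and 2 lower, with the cathepsins CTSK (0.95 ± 0.14) and CTSH (0.74 ± 0.11) higher and CTSC (-1.06 ± 0.18) lower.

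Some lists held few calls or shares of calls not far from those of all genes. Cell cycle genes had 1 of 50 higher and 4 lower, with 1 or 2 lower without BMP6 replicate 3 or 4, control replicate 2 or the weakly hybridised arrays. Their median of 0.07 was -0.09 without control replicate 1. CCND3, cyclin D3, fell by 0.65 ± 0.13 on the log2 scale (adjusted p = 0.00236). Histone and chromatin genes had 3 of 59 higher (1 without control replicate 1 or the weakly hybridised arrays) and 5 lower, with the cytoplasmic deacetylase HDAC6 lower by 0.99 ± 0.09 (adjusted p = 1.87e-06). Solute carriers, the largest list, had 20 of 179 higher and 17 lower, or 12 and 11 without the weakly hybridised arrays and 13 higher without control replicate 1. The riboflavin transporter SLC52A2 fell by 1.12 ± 0.08 on the log2 scale (adjusted p = 1.59e-07, all 3 probe sets).

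Markers of further cell types were read from the same arrays. The summed granulosa markers rose from between 10.71 and 10.88 to between 11.07 and 11.41. Called higher were 2 of 11, CDH2 and SERPINE2 (0.92 ± 0.12), and KRT18 was called lower. The sum follows the brighter members, and CDH2, far below it on every array, adds little to it. The granulosa-defining FSHR, CYP19A1 and FOXL2 (picked with their values known) did not pass the test, at control levels of 3.50, 4.49 and 4.72, near the lower quartile of the arrays. Endothelial markers overlapped between the groups (9.70 to 10.41 in control, 9.38 to 10.02 with BMP6), with 1 of 14 called higher and 1 lower, as did pericyte and smooth muscle markers (13.05 to 13.52 and 12.999 to 13.95), red blood cell markers (7.51 to 7.68 and 7.58 to 7.74) and epithelial and oocyte markers (8.54 to 8.88 and 8.62 to 9.09).

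**Figure D5:**
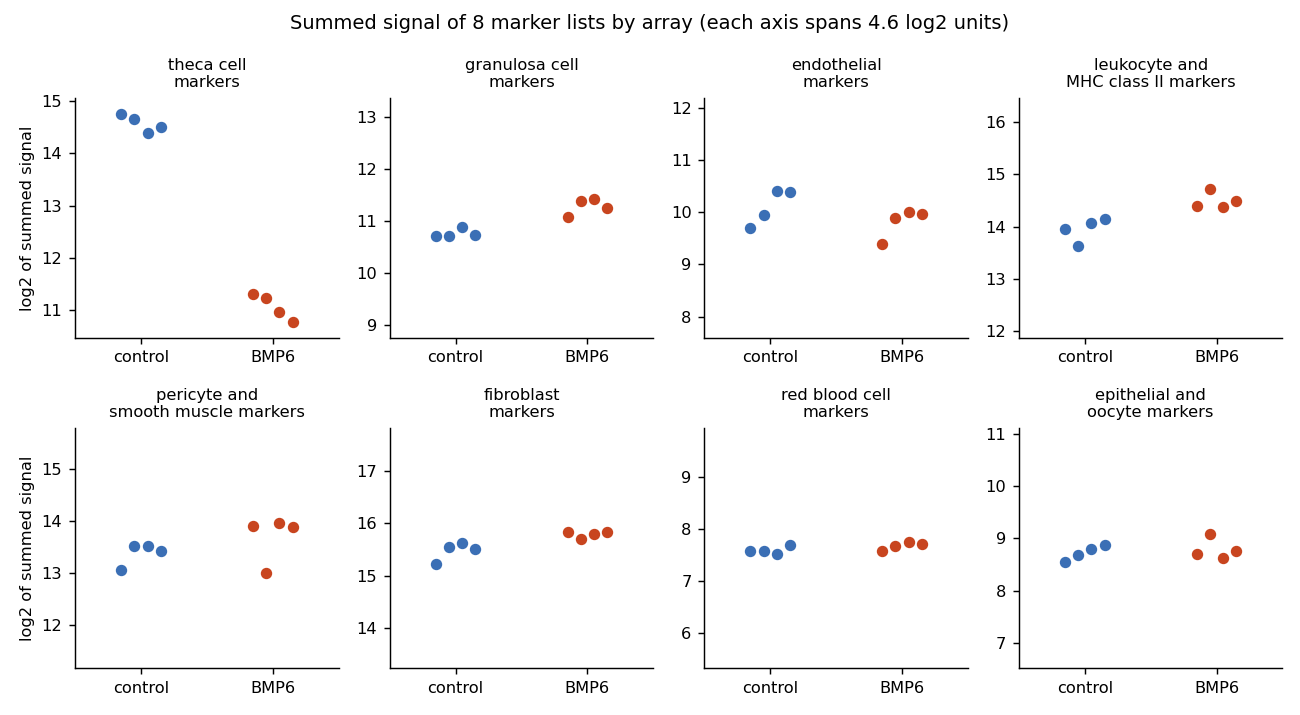
Log2 of the summed signal of 8 lists of cell type markers (vertical axis, a span of equal height in every panel) on the 4 control and 4 BMP6 arrays. Theca markers, whose control sum is mostly INSL3, drop from 14.38 or more to 11.30 or less. Leukocyte, fibroblast and granulosa markers shift up without overlap, and the other 4 lists overlap.

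The same contrast was set beside LH+BMP6 against LH, which shares no array with it and in which 9.99% of probe sets were called higher and 10.3% lower. Of the probe sets called higher by BMP6 alone 78.6% were also called higher there, and of those called lower 72.3%. In the other direction 63.9% of the higher and 69.7% of the lower calls with LH were called with BMP6 alone, and 0 were called in opposite directions. The direct test of the difference, the interaction of LH and BMP6 in limma, called 0 of 24016 probe sets. An unadjusted p under 0.05 was seen for 773, a smaller share than the 0.05 that chance alone gives. CYP17A1 differed by -4.15 ± 0.52 with LH and -2.80 ± 0.52 without (interaction -1.35 ± 0.74, adjusted p = 1.00). STAR differed by -3.21 ± 0.68 with LH, where it was called (adjusted p = 0.00264), and -1.74 ± 0.68 without (interaction -1.47 ± 0.96, adjusted p = 1.00). SCG2, which encodes secretogranin II, was called higher by BMP6 alone (0.74 ± 0.14, adjusted p = 0.00117) and differed by -0.09 ± 0.14 in the presence of LH (interaction -0.83 ± 0.20, adjusted p = 1.00).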

How the data were processed

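The authors deposited log2 signals made with RMA in Affymetrix Expression Console, per the submitters' processing notes. No probe set was renormalized here. Of 24128 probe sets 112 controls were left out. Symbols came from the platform annotation: 13292 probe sets had 1 symbol, 86 had several and 10638 had none. Each gene was read from its brightest probe set, by mean signal over the 16 arrays. limma 3.58.1 (R 4.3.3) was fitted with 1 coefficient per group to all 16 arrays, with an intensity trend and Benjamini-Hochberg adjustment over 24016 probe sets, and was tested on simulated data. Array quality was compared by exact permutation tests (scipy 1.17.1).

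The members and the gene lists (49 of pathways and 8 of cell markers) were chosen with earlier results of these data known, so lists are described by counts and medians. Entries that matched unrelated genes by their spelling were removed from 3 lists after values were seen. Genes were chosen for naming by a rule. It took the 12 largest rises and falls whose groups did not overlap, and up to 3 called members each way per list. A set of theca, BMP and inhibin genes was added whatever their values. Genes said in the text to be named or picked with their values seen fall outside this rule. Not all genes so chosen are described above. Left out are the large falls of LOC783399 (-3.73 to -3.27 with single arrays left out) and LOC508666 (-3.55 to -3.20). Left out too are the rises of LOC508098 (1.98 to 2.54) and IGSF10 (1.79 to 2.56), among others. Replicate numbers were not used as a block in the main fit, since the labels do not state that same-numbered arrays share a batch of ovaries. Alternatives were the block, variance moderation, arrays used, filters, normalization, the probe set rule and thresholds, and, added after the data were seen, only named probe sets. Promoter and protein sequences were not analysed here.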

Additional observations from a re-analysis of the deposited data

Results flagged for a closer look

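A single culture stood apart from the 3 others of its group, by Dixon's test for 4 samples, in 28 of 498 gene and group combinations. That is 5.62%, and chance gives about 1 in 20. All values are log2 signals.

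BMP6 replicate 2 gave the most such values. It was high for PFKFB3 (9.82 against 8.80 to 8.85), PTGS2 (10.24 against 9.13 to 9.26), RDH10 (9.24 against 8.35 to 8.44), KLF4 (9.71 against 9.22 to 9.29), DES (7.80 against 7.31 to 7.34) and PTN (11.55 against 10.86 to 10.96). It was low for ID3 (8.65 against 9.13 to 9.22), ANKRD1 (10.93 against 11.80 to 11.90), TRPC4 (7.07 against 7.98 to 8.12), FBLN5 (7.08 against 8.25 to 8.41), GPAM (5.81 against 6.49 to 6.59), RARS2 (7.42 against 7.80 to 7.83) and DUSP1 (8.93 against 9.01 to 9.02).

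BMP6 replicate 1 was high for OGN (9.71 against 7.10 to 7.17), LSS (8.28 against 7.54 to 7.61), GATA6 (11.53 against 11.34 to 11.34) and GPX3 (4.98 against 4.23 to 4.34). It was low for CCL20 (7.49 against 8.77 to 8.95), IL1B (6.67 against 7.47 to 7.48), C4A (11.51 against 12.08 to 12.11) and PDIA5 (8.64 against 9.05 to 9.09). BMP6 replicate 3 was high for TNNT1 (4.06 against 3.72 to 3.77) and BMP6 replicate 4 low for CELSR2 (4.43 against 4.90 to 5.00).

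Control replicate 1, 1 of the weakly hybridised arrays, was low for THBS2 (9.29 against 10.42 to 10.57), SFRP2 (6.50 against 7.26 to 7.38) and FBLN5 (9.25 against 9.56 to 9.60) and high for PSME1 (11.89 against 11.65 to 11.65) and BOC (5.57 against 5.51 to 5.51).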

How the results depend on the processing

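The counts of calls moved by over 1.5 times under 4 of the alternatives. Without the weakly hybridised arrays 2660 probe sets were called, 1188 higher and 1472 lower (genes 544 and 900). At an adjusted p under 0.01 the counts were 2447, 1038 and 1409 (genes 479 and 885), and with a 2-fold minimum 508, 264 and 244 (genes 133 and 124). With only named probe sets, an alternative chosen after seeing the data, 1223 were higher. Leaving out single arrays gave 3140 to 4049 probe sets, 1370 to 1898 higher and 1770 to 2192 lower (genes 608 to 848 higher and 1094 to 1311 lower). Of the 240 named genes called, 180 kept the call in all 19 settings run for them, 41 lost it without some single array and 44 without the weakly hybridised arrays. No named gene turned its direction between calls. The interaction called 0 of the named genes in each setting in which it was fitted, which leaves out the fit of only the 8 arrays compared. Same-numbered BMP6 and control arrays deviated together only weakly (r of 0.033, -0.111, 0.149 and 0.080). This check did not settle whether the numbers pair the arrays, and a replicate block raised the calls above the 4340 of the main fit. With the replicate block 5202 probe sets were called as a fixed term (2419 higher and 2783 lower, genes 1075 and 1626) and 4970 as a random effect. INHBA was called with either block (adjusted p = 0.0468 and 0.0488 by limma) and FST with the fixed one (adjusted p = 0.0447), and 7 hormone and prostaglandin receptors were then higher in place of 3. RMA signals near the lower quartile cannot be ordered, and 4 arrays per group limit the precision. The causes of these shifts were not tested.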
